A study of Mus musculus with 16 samples.

Results

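BMAL1 peaks at 3 genes of chromatin proteins, Kdm6b, Hmgn2 and Phf1, are described here in mouse liver. The genes were taken by name from the authors' table of merged peak intervals, at any distance from the transcription start site (TSS), and they account for 4 of its 7043 intervals and 19 of the 9986 peaks in the 8 lists behind it. Kdm6b holds 2 of the intervals, and Hmgn2 and Phf1 hold 1 each. They were selected on the calls and q values of these same lists, among them the calls in the control and misaligned libraries. All values below are therefore descriptions, without a test.

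The study measured where BMAL1 sits on liver DNA by chromatin immunoprecipitation and sequencing (ChIP-seq), in C57bl6 mice aged 8 to 16 weeks. The 8 groups combined both sexes with control or misaligned treatment, each sampled at ZT0 and at ZT12. ZT is the time in hours after lights on, in a cycle of 12 h light and 12 h dark, and all groups ate a diet with 42% of its calories from fat from the first week of the protocol. Each group had 1 BMAL1 library, made from the pooled livers of 3 to 4 mice, so no difference between groups could be set against replicate error. The labels do not describe the misalignment schedule, and the IgG libraries were not analysed here. Peak lists do not measure expression, so the labelled tissue could not be checked against its marker genes.

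BMAL1 pairs with CLOCK and switches on clock and output genes through E-boxes, short DNA elements with the letters CACGTG. Its binding in liver is known to rise and fall over the day. Kdm6b (also called JMJD3) is a demethylase that takes methyl groups off lysine 27 of histone H3, a mark of repressed genes. Phf1 is a Polycomb-like protein and an accessory subunit of PRC2, the complex that writes that mark. Hmgn2 belongs to the HMGN family, small proteins that bind nucleosomes and loosen their packing. The set thus holds an eraser of the mark, a partner of its writer, and a nucleosome-binding protein.

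Promoter sequence could be set beside the peaks from RefSeq (GRCm38.p6, the build of the peak files), which matched 2 of the 3 genes, Hmgn2 and Phf1. The 250 bases before each start are shown because they carry different E-box letters at different places relative to the peak. A window of Cuta, the neighbour of Phf1, was added after its values were seen, since its own interval lies 5608 bp from that of Phf1. Sequences read 5′ to 3′ in the direction of the gene, and capitals mark CACGNG on either strand, which includes the E-box CACGTG.
Hmgn2, chr4:133967992-133968241, minus strand: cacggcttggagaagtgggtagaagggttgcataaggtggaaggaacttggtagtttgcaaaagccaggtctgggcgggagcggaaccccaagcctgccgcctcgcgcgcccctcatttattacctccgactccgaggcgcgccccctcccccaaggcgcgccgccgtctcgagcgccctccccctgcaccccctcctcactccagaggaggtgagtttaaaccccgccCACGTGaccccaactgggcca
Phf1, chr17:26932877-26933126, plus strand: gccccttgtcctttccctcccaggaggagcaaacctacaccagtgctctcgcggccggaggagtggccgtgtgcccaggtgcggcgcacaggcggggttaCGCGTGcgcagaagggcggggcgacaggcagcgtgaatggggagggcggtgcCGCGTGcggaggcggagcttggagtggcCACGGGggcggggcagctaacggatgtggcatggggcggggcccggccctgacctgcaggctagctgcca
Cuta, chr17:26939459-26939708, minus strand: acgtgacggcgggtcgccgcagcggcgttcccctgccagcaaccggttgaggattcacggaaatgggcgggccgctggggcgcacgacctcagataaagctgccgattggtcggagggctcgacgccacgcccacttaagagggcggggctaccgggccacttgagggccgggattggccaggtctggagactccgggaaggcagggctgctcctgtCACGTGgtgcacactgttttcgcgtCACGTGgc

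The Hmgn2 window holds 1 CACGTG, which begins 21 bases before the start. It lies outside the BMAL1 interval, with 211 bp between them, and 641 to 679 bp from the peak summits. The Phf1 window lies wholly inside its interval and holds no CACGTG. It has 3 matches to CACGNG, beginning 150, 98 and 70 bases before the start, and the first of these is 3 to 37 bp from the summits. The Cuta window shown has 2 CACGTG, beginning 33 and 8 bases before its start. Another Cuta window (26939539 to 26939788), for a different start, has 1 CACGTG, beginning 171 bases before that start. Both windows lie inside the RefSeq gene, which runs from 26937972 to 26939884. These are matches of letters, not shown to be binding sites.

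Among 32817 RefSeq promoter windows of the same length, 6.02% hold CACGTG and 23.5% hold CACGNG, which takes in CACGTG. The shares are 19.9% and 54.4% in the 2266 windows that an interval overlaps, and 37.6% and 77.8% in the 117 overlapped by an interval called in at least 5 libraries. Phf1 is 1 of these 117 windows, and the Hmgn2 window is not overlapped, being 196 bp from its interval. CACGTT, another E-box-like form, is in neither the Hmgn2 nor the Phf1 window and in 3.85% of all windows. No sequence was read under the Kdm6b or Hmgn2 summits.

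The Kdm6b peaks sat inside the gene, not in front of it. The main interval spans chr11:69418158-69419190 (1033 bp) and was called in 7 of 8 libraries, all but female control ZT12. The authors' annotation calls it intergenic, at -14459 bp from the TSS of transcript ENSMUST00000094077. In RefSeq the same interval lies within Kdm6b (69398508 to 69420367, on the minus strand by the sign of the authors' distance), and its summits are 1463 to 1500 bp into the gene from the 5′ end. It also overlaps the long noncoding RNA gene Gm51903 (69415513 to 69420803), and the axonemal dynein gene Dnah2 lies 1616 bp away. The interval cannot be tied to one of these genes by position alone.

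The Hmgn2 interval, chr4:133966963-133967795 (833 bp), was called in 6 libraries, all but the female controls of both times. It is annotated as promoter-TSS at 512 bp from the TSS of ENSMUST00000102552. In RefSeq, where Hmgn2 runs from 133964739 to 133967991 on the minus strand, the summits are 623 to 661 bp inside the gene. Dhdds, an enzyme gene of dolichol synthesis, lies 1232 bp away.

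The Phf1 interval, chr17:26932728-26933591 (864 bp), was called in 5 libraries: male control ZT0 and the misaligned libraries of both sexes and times. It is annotated as promoter-TSS at 32 bp from the TSS of ENSMUST00000073724. Phf1 runs from 26933127 to 26937908 on the plus strand, and the summits lie 111 to 152 bp before its start. The kinesin gene Kifc5b lies 148 bp before the interval. Of the 3 genes, only Phf1 had its summits upstream of the RefSeq 5′ end.

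For reference, 0.895% of the 7043 intervals were called in at least 7 libraries, 1.58% in at least 6 and 2.68% in at least 5, while 78.5% were called in 1 library. Since these calls chose the genes, nothing is read from the comparison.

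**Figure D1:**
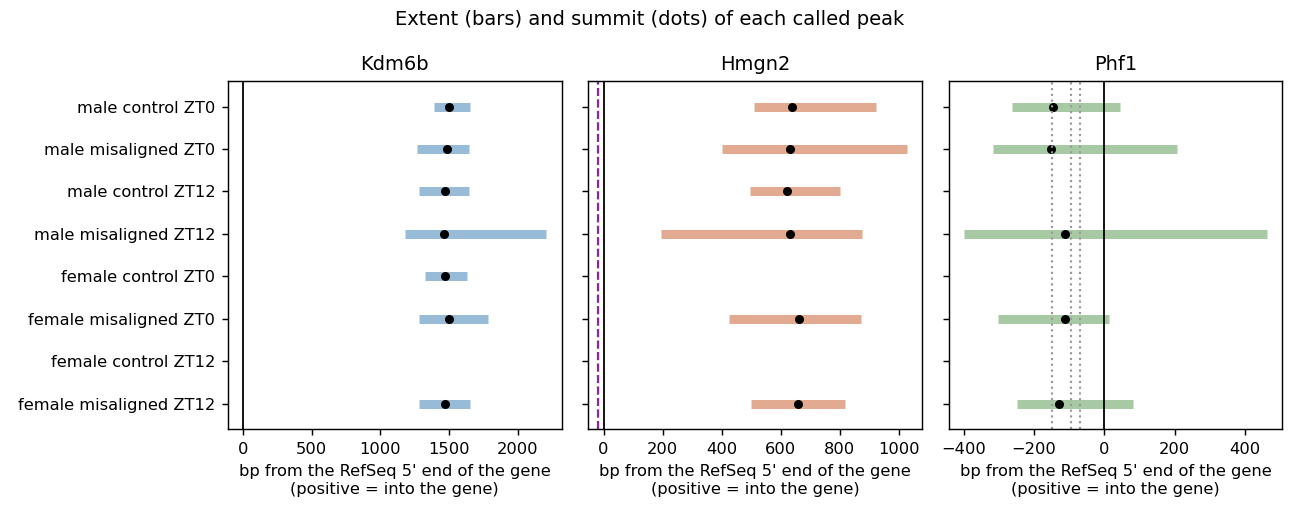
Extent and summit of each BMAL1 peak at Kdm6b, Hmgn2 and Phf1, by library (rows), in bp from the RefSeq 5′ end of the gene (x axis; positive values run into the gene, and the solid line is the 5′ end). Bars are the peaks, dots the summits, the dashed line the CACGTG of the Hmgn2 window and dotted lines the CACGNG matches of the Phf1 window; the summits of each gene stay within 37 to 41 bp across libraries.

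The summits hardly moved between libraries. They spanned 37 bp over 7 libraries at Kdm6b, 38 bp over 6 at Hmgn2 and 41 bp over 5 at Phf1. The 7 Kdm6b peaks shared a core of 240 bp, the 6 Hmgn2 peaks one of 290 bp and the 5 Phf1 peaks one of 263 bp. Among all intervals called in the same number of libraries, with 1 peak in each, the median span was 73 bp for 7 libraries, 92 bp for 6 and 69 bp for 5. A span no larger than that of the gene was found in 6 of 29, 9 of 48 and 13 of 76 of these intervals, the gene's own included. Tight summits are thus shared with other sites. The widest peak of each gene, 1033 bp at Kdm6b, 682 bp at Hmgn2 and 864 bp at Phf1, was that of male misaligned ZT12, the longest list.

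A second Kdm6b interval, chr11:69417547-69417824, was called in male misaligned ZT12 alone, 333 bp from the main one and further into the gene. Its peak had a fold enrichment of 4.5 and -log10 q of 11.7, and ranked 1290 of 5542. It is the weakest of the 4 intervals in that library.

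Peak height was read as the summit's fold enrichment above local background, a ratio from the authors' peak caller, and as -log10 q, its significance against that background in the same library. Both depend on the depth of the library, which is unknown. In males the fold enrichment at Kdm6b was 3.89 (control) and 7.22 (misaligned) at ZT0, and 7.56 (control) and 9.45 (misaligned) at ZT12. In females it was 4.3 (control) and 11.9 (misaligned) at ZT0, and 5.8 (misaligned) at ZT12. The highest value was female and the lowest male, and the values of control libraries (3.89 to 7.56) overlapped those of misaligned libraries (5.8 to 11.9). The -log10 q ran from 7.59 in male control ZT0 to 76.3 in male misaligned ZT12.

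In males the fold enrichment at Hmgn2 was 5.86 (control) and 17.9 (misaligned) at ZT0, and 5.72 (control) and 19.7 (misaligned) at ZT12. In misaligned females it was 10.4 at ZT0 and 5.59 at ZT12. The male misaligned libraries stood far above the male controls, while female misaligned ZT12 was as low as those controls. The -log10 q of 169 in male misaligned ZT12 and 105 in male misaligned ZT0 are the highest of the 19 peaks.

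In males the fold enrichment at Phf1 was 5.79 (control) and 6.05 (misaligned) at ZT0, and 12.8 (misaligned) at ZT12. In misaligned females it was 5.86 at ZT0 and 5.09 at ZT12. Male misaligned ZT12 stood apart, and the other 4 lay between 5.09 and 6.05. The -log10 q ran from 21.5 in male control ZT0 to 81.6 in male misaligned ZT12. Compared with the median fold enrichment of each list (3.49 to 4.64), 18 of the 19 peaks were higher, and only Kdm6b in male control ZT0 was lower (3.89 against 4.61).

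**Figure D2:**
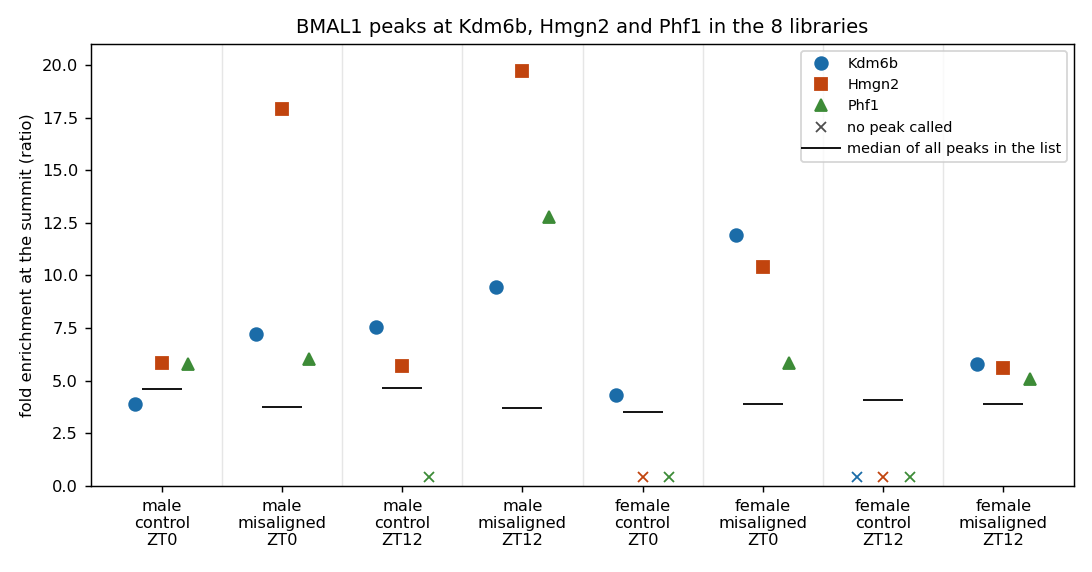
Fold enrichment at the summit (ratio, y axis) of the BMAL1 peaks at Kdm6b, Hmgn2 and Phf1 in each library (x axis), with the median of all peaks of that list as a dash and a cross near 0 where no peak was called. Hmgn2 in the male misaligned libraries (17.9 and 19.7) is the highest, and no peak of the 3 genes was called in female control ZT12.

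Place within a list depends less on scale, though the lists differ in length, from 141 peaks in female control ZT12 to 5542 in male misaligned ZT12. Ranked by -log10 q, Hmgn2 was 16th of 1864 in male misaligned ZT0, 18th of 5542 in male misaligned ZT12 and 31st of 1330 in female misaligned ZT0. In the shorter lists it ranked 116 of 373 in male control ZT0, 95 of 290 in male control ZT12 and 40 of 221 in female misaligned ZT12. Ranks from lists of such different lengths do not show a change.

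In control males Kdm6b ranked 246 of 373 at ZT0 and 57 of 290 at ZT12, and in misaligned males 100 of 1864 and 74 of 5542. In control females it ranked 35 of 225 at ZT0, and in misaligned females 35 of 1330 at ZT0 and 39 of 221 at ZT12. It was the only 1 of the 3 genes with a peak in a female control library. Phf1 ranked 67 of 373 in control males at ZT0, 119 of 1864 and 65 of 5542 in misaligned males at ZT0 and ZT12, and 88 of 1330 and 52 of 221 in misaligned females. No gene of the 3 led in every library.

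**Figure D3:**
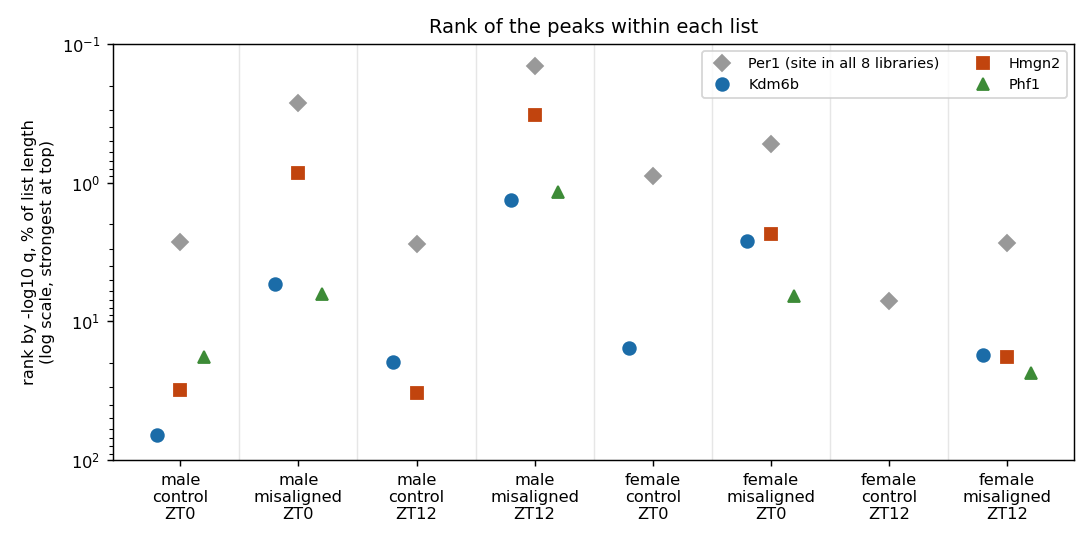
Rank by -log10 q as a percentage of the list's length (y axis, log scale, strongest at the top) for Kdm6b, Hmgn2, Phf1 and the Per1 site called in all 8 libraries, by library (x axis). Per1 stands above the 3 genes in every library, and Hmgn2 comes closest to it in male misaligned ZT12 (0.325% against 0.144%).

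For a measure set against each library's own strong sites, fragment counts at the summit, with their local background, were worked out from the authors' fold enrichment and p. The excess of fragments over background was then divided by its median over the 26 intervals that were called in all 8 libraries and held no peak of high background (at least 5 times the lowest of the list). On this scale, called relative strength here, 1 is the median shared site. A change between libraries that the shared sites have in common cannot be seen on it. The local background of the 19 peaks was 1 to 3 times the lowest of their list, so none was of high background. Brackets give exact Poisson 95% intervals of the summit count, which cover counting error only and not the spread between mice.

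Hmgn2 was the site whose relative strength differed most between libraries. In males it was 0.487 (0.325 to 0.691) in control ZT0 and 0.97 (0.795 to 1.17) in misaligned ZT0, from 41 and 119 fragments. At ZT12 it was 0.413 (0.285 to 0.571) in male controls and 0.917 (0.784 to 1.07) in misaligned males, from 49 and 186 fragments. The misaligned to control ratio was 1.99 at ZT0 and 2.22 at ZT12, and in both male pairs the intervals did not overlap. This is not a test of a difference, since the gene was chosen on these calls and each group has 1 library. The intervals also leave out any error in the shared-site median and in the local background. Female misaligned ZT0 (0.778, 0.618 to 0.965) and female misaligned ZT12 (0.623, 0.466 to 0.809) lay between, with the latter overlapping both male control libraries.

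Kdm6b had an only slightly narrower range on this scale, 0.384 to 0.843 against 0.413 to 0.97 at Hmgn2. The lowest and highest Kdm6b values rested on 36 and 40 fragments, which makes their intervals wide. Its relative strength in control males was 0.384 (0.233 to 0.578) at ZT0 and 0.565 (0.417 to 0.742) at ZT12, and in misaligned males 0.45 (0.328 to 0.597) and 0.601 (0.491 to 0.726). In control females it was 0.843 (0.537 to 1.23) at ZT0, and in misaligned females 0.693 (0.543 to 0.869) at ZT0 and 0.652 (0.492 to 0.841) at ZT12. All 7 intervals overlapped one another, which is not a test of the differences. The misaligned to control ratio was 1.17 in males at ZT0, 1.06 in males at ZT12 and 0.822 in females at ZT0. When the excess was divided by the lowest background of each list in place of the shared sites, these ratios were 2.74, 2.13 and 2.42, so the direction in females turned. On that scale the Kdm6b values ran from 4.46 (control males, ZT0) to 27.3 (misaligned males, ZT12), and the spread between libraries thus depends on the scale.

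Phf1 also differed little on the scale of the shared sites where it was called. Its relative strength was 0.671 (0.477 to 0.906) in control males at ZT0, and 0.464 (0.339 to 0.616) at ZT0 and 0.539 (0.436 to 0.656) at ZT12 in misaligned males. In misaligned females it was 0.613 (0.465 to 0.787) at ZT0 and 0.556 (0.406 to 0.734) at ZT12. All 5 intervals overlapped one another. The misaligned to control ratio in males at ZT0 was 0.692, and it turned to 1.6 with the lowest background as the scale. Scaled that way, Phf1 was 7.79 in control males at ZT0 and 24.5 in misaligned males at ZT12. For Hmgn2 the lowest background gave 4.64 at ZT0 and 4.44 at ZT12, the same direction as the shared sites.

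**Figure D4:**
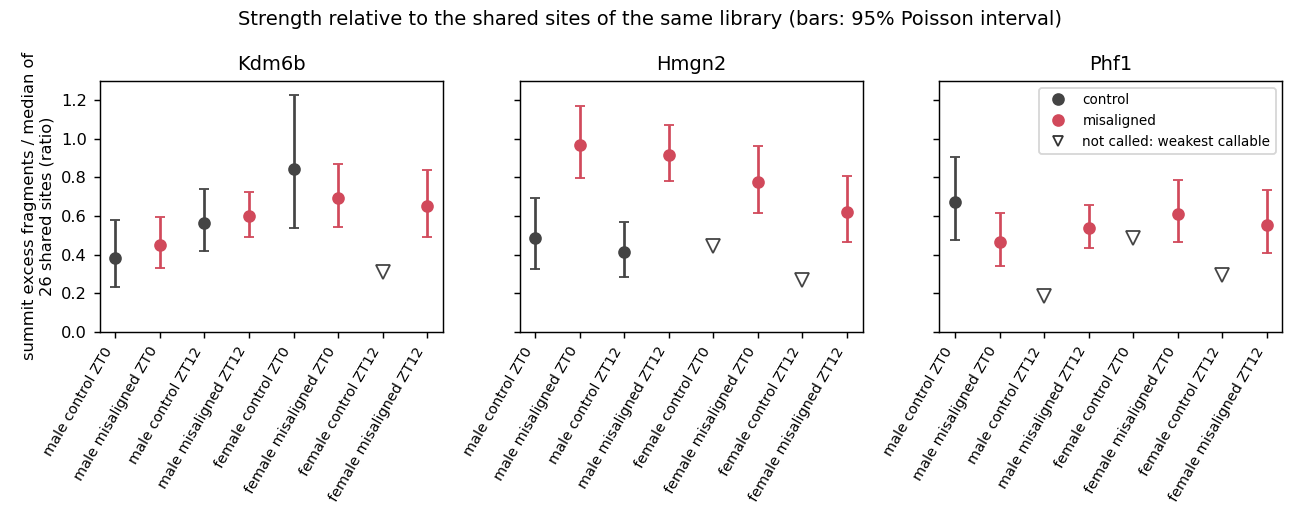
Summit excess fragments divided by the median of the 26 shared sites (relative strength, y axis) at Kdm6b, Hmgn2 and Phf1 by library (x axis), with exact Poisson 95% intervals of the summit count as bars; open triangles mark, where no peak was called, the weakest site that could have been. Hmgn2 in misaligned males (0.97 and 0.917) lies above male controls (0.487 and 0.413), while the intervals at Kdm6b and at Phf1 overlap.

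A missing call was read against the weakest site that the library could have called. That limit took the least significant peak of the list and the highest background seen at the site in the other libraries. Phf1 in male control ZT12 would have been called from a relative strength of 0.183, and the weakest Phf1 peak elsewhere was 0.464. The limits in female control ZT12 were also below every called value of the gene. They were 0.312 against 0.384 for Kdm6b, 0.267 against 0.413 for Hmgn2 and 0.296 against 0.464 for Phf1. The counting interval of that Kdm6b value (0.233 to 0.578) includes the limit. Those of the Hmgn2 and Phf1 values start above it, at 0.285 (male control ZT12) and 0.339 (male misaligned ZT0). These intervals belong to the libraries that called the sites. The counting error in female control ZT12 itself was not worked out, so whether a site of that strength could be missed there was not tested. In female control ZT0 the limits were not below every called value, at 0.446 against 0.413 for Hmgn2 and 0.484 against 0.464 for Phf1. There a site as weak as the weakest called one would not have been called at the background used. The limit would be lower at a lower background, and the background of these sites in that library is not known.

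Control and misaligned libraries were set side by side within each sex and time. In males at ZT0 the control and misaligned libraries called the same intervals, those of Kdm6b (main), Hmgn2 and Phf1, so 0 of 4 were called in the misaligned library alone, against 22.6% of all intervals. In males at ZT12, 2 of 4 were called in the misaligned library alone (Phf1 and the second Kdm6b interval), against 75.5%. In females, 2 of 4 were at ZT0 (Hmgn2 and Phf1), against 17.6%, and 3 of 4 at ZT12 (main Kdm6b, Hmgn2 and Phf1), against 2.09%. None was called in a control library and not in its misaligned partner, which held for 1.42% (males) and 1.95% (females) of all intervals at ZT0 and for 0.895% and 0.965% at ZT12. The genes were chosen with these calls known, so nothing is read from the counts. The misaligned list was also the longer one in each pair, and a longer list and a difference at the sites cannot be told apart by these counts.

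Between the times, Kdm6b had a relative strength of 0.384 at ZT0 and 0.565 at ZT12 in control males, and 0.45 and 0.601 in misaligned males. In misaligned females it was 0.693 at ZT0 and 0.652 at ZT12. At Hmgn2 the values at ZT0 and ZT12 were 0.487 and 0.413 in control males, 0.97 and 0.917 in misaligned males and 0.778 and 0.623 in misaligned females. At Phf1 they were 0.464 and 0.539 in misaligned males and 0.613 and 0.556 in misaligned females. The counting intervals of ZT0 and ZT12 overlapped in each of these comparisons on the scale of the shared sites. That scale takes out any change over the day that the shared sites have in common. Divided by the lowest background instead, Hmgn2 turned to higher values at ZT12 in control males (5.65 and 9.4) and misaligned males (26.2 and 41.7). Kdm6b was again higher at ZT12 in males, and by more, with 4.46 and 12.8 in controls and 12.2 and 27.3 in misaligned mice. The other orders stayed.

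Between the sexes, in misaligned mice at ZT12 the male values were 0.601 for Kdm6b, 0.917 for Hmgn2 and 0.539 for Phf1, and the female values 0.652, 0.623 and 0.556. In misaligned mice at ZT0 the male values were 0.45, 0.97 and 0.464, and the female values 0.693, 0.778 and 0.613. Female Kdm6b was thus higher at both times and female Hmgn2 lower, and the counting intervals of the sexes overlapped in all of these on that scale. With the lowest background as the scale, the order at ZT12 turned for Kdm6b (27.3 in males, 11.1 in females) and Phf1 (24.5 and 9.42). Kdm6b was the only gene called in controls of both sexes, at ZT0, with 0.384 in males and 0.843 in females, again with overlapping intervals. The fragments behind the values in misaligned mice numbered 60 to 186 in males and 71 to 98 in females.

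On chromosome 11, Kdm6b shares its surroundings with Per1, a core clock repressor and a textbook BMAL1 target. The Per1 site called in all 8 libraries lies 323 kb from the main Kdm6b interval. Its relative strength was 1.56 to 2.05, above the Kdm6b range of 0.384 to 0.843 without overlap. A second Per1 interval, chr11:69098459-69099102, called in 6 libraries, had a relative strength of 0.561 to 0.685, inside the Kdm6b range. The range of the main Kdm6b site thus took in that of the second Per1 interval and lay below that of the Per1 site called in all 8 libraries.

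Other intervals within 100 kb were mostly weak and from the longest list. Near Kdm6b there was 1 besides its own second interval, at Trappc1 (94141 bp away, male misaligned ZT12 alone, fold enrichment 4.55). Near Hmgn2 there were 3. The strongest was assigned to Rps6ka1, a kinase gene of the growth factor response, and was called in 7 libraries at 55638 bp, with a fold enrichment of 8.29 and -log10 q of 46.4 in male misaligned ZT0. It was called in female control ZT12, where Hmgn2 was not. The others, at Rps6ka1 (78569 bp) and Gm12985 (84735 bp), were called in male misaligned ZT12 alone.

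Near Phf1 there were also 3 intervals. That of Cuta was called in 3 libraries (male control ZT0, female misaligned ZT0 and male misaligned ZT12), each of which also called Phf1, with a fold enrichment of 7.18 and -log10 q of 25.2 in male misaligned ZT12. The Phf1 peak of that library was stronger, at 12.8 and 81.6. Gm17382 (47363 bp) and Mir3083 (13014 bp) were called in male misaligned ZT12 alone.

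Intervals called in exactly the same libraries were ordered by how close their ranks, as percentages of list length, came to those of each gene. For Hmgn2, of 18 others over 6 libraries, the closest were at Tns2 (mean absolute difference 5.64 percentage points), the transcription factor gene Klf11 (5.72), Asap1 (6.89), the second Per1 interval (6.98) and the ubiquitin protease gene Usp2 (8.53). For Phf1, of 20 others over 5 libraries, they were at Hlf, a PAR-bZIP clock output factor (3.71), Gm23412 (5.8), the nucleoporin gene Nup50 (9.71), Hnf4aos (10.2) and the forkhead factor gene Foxo3 (11). For Kdm6b there were 5 others over 7 libraries, and the closest, Gnpnat1, an enzyme gene of amino sugar synthesis, was 11 points away. The remaining Kdm6b matches were AC158786.1 (19.7), mt-Th (12.1) and mt-Tv (27.5) on the mitochondrial genome, and Gm10721 (41.1) near the start of chromosome 9. Phf1 had the closest match of the 3 genes and Kdm6b the most distant.

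How many related chromatin genes had a peak depended on how peaks were given to genes. Besides the 3 genes, 6 lists held 102 genes: PRC2 with the H3K27 demethylases, other histone demethylases, HMG chromatin proteins, H3K4 and H3K36 methyltransferases, histone acetylation with the clock corepressors, and nucleosome remodellers with PRC1. Genes were first matched by the symbol that the authors assigned, 10 kb or less from its TSS. A peak was then found in at least 1 library for 16 of the 102 (15.7%), against 11.1% of 21900 protein-coding genes. Symbols were matched as written, so genes that the authors gave under another symbol are missed in both shares. At Epop and Nsd3 the authors' names include E130012A19Rik and Whsc1l1, and these intervals are not counted. By RefSeq position, with an interval in the gene or 10 kb or less from either end, it was 53 of the 102 (52%), against 26.4% of protein-coding genes. That wider rule depends on gene length, whose median was 43.8 kb for the 102 and 17.1 kb for all, and the part of length in the difference was not tested. By the authors' assignment, in control males the count was 1 at ZT0 (0.98%, against 0.804% of protein-coding genes) and 1 at ZT12 (0.98% against 0.484%), and in misaligned males 7 (6.86% against 3.52%) and 13 (12.7% against 8.9%). In control females it was 2 at ZT0 (1.96% against 0.411%) and 0 at ZT12 (against 0.242%), and in misaligned females 5 (4.9% against 2.94%) and 1 (0.98% against 0.457%). Both the counts and the shares of all genes were highest in the 3 longest lists.

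Among the PRC2 genes and H3K27 demethylases, RefSeq position gave 6 of 15 an interval (40%, against 26.4% of protein-coding genes). Matching the authors' symbols gave 3 a peak 10 kb or less from the TSS (20%, against 11.1%). Besides Phf1 these were Rbbp4, a histone-binding subunit that PRC2 shares with other complexes, called in 2 libraries (fold enrichment 3.83 and -log10 q 11.5 in male misaligned ZT12), and Suz12, a core subunit of PRC2, called in 1 (3.31 and 4.01 in the same library). Both were far weaker there than Phf1. The main Kdm6b interval is outside 10 kb by the authors' distance, so Kdm6b is not in this count. Nor is Epop, with intervals by RefSeq position in 3 libraries, which the authors gave under other symbols.

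Of 9 HMG genes, Hmgn2 included, 4 had a peak within 10 kb by the authors' assignment (44.4%, against 11.1% of protein-coding genes). Hmgn2 had one in 6 libraries. In male misaligned ZT12 there were peaks at Hmgn1, a paralog of Hmgn2 (fold enrichment 4), at Hmga1 (3.12) and at an interval assigned to Hmgb1 (3.41), and another Hmga1 interval was called in male misaligned ZT0 (3.08). The interval assigned to Hmgb1 lies 131 kb from the gene's RefSeq position, and a different interval, within 10 kb of that position, was called in 2 libraries. The Hmgn2 peak of 19.7 in male misaligned ZT12 was above the other 3 in that library.

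Of 19 other histone demethylases, 1 (5.26%, against 11.1% of protein-coding genes) had a peak within 10 kb by the authors' distance. It was Kdm1b (fold enrichment 3.12 in male misaligned ZT0), named after its value was seen. By RefSeq position, 9 had an interval (47.4%, against 26.4%). The strongest peaks that the authors assigned to that list were those of Kdm4a (-log10 q 15.2), Kdm5c (10.5) and Kdm2b (4.43), all more than 10 kb from the TSS by their distance. The Kdm5c interval, though, is annotated as promoter-TSS and overlaps the lower coordinate of the RefSeq gene, which runs from 152233198 to 152279102 on chromosome X. As at Kdm6b, the distance is to a transcript that starts elsewhere. Kdm2a, by RefSeq position, had an interval in 5 libraries, the same 5 as Phf1, but the authors assigned that interval to Rhod.

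Of 15 methyltransferases, 1 (6.67%, against 11.1% of protein-coding genes) had a peak by symbol and the authors' distance. It was Setd1a (fold enrichment 3.24 in female misaligned ZT0), which acts on H3K4. The strongest peak under a symbol of that list, at Nsd1 (5.49), was beyond 10 kb. Intervals at Nsd3, which the authors named Letm2 and Whsc1l1, are not among these. By RefSeq position 8 had an interval (53.3%, against 26.4% of protein-coding genes). These include Kmt2a, called in 8 libraries and so in more than Kdm6b, Kmt2d in 4 and Kmt2c in 3, all H3K4 methyltransferases whose intervals the authors assigned to other genes. Epop, Kdm2a, Kmt2a, Kmt2c, Kmt2d and Nsd3 were chosen after their values were seen.

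Among the nucleosome remodellers, 2 genes had a peak within 10 kb of the TSS in several libraries. Smarca4, an ATPase of SWI/SNF remodelling complexes, had a promoter peak in 5 libraries, with a fold enrichment of 3.01 in female misaligned ZT12 to 6.06 in female misaligned ZT0. Its alternative ATPase Smarca2 had an intron peak in 4 libraries (3.74 to 8.52), among them both male controls. Smarca4 was called in female control ZT0, as Kdm6b was and Hmgn2 and Phf1 were not.

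**Figure D5:**
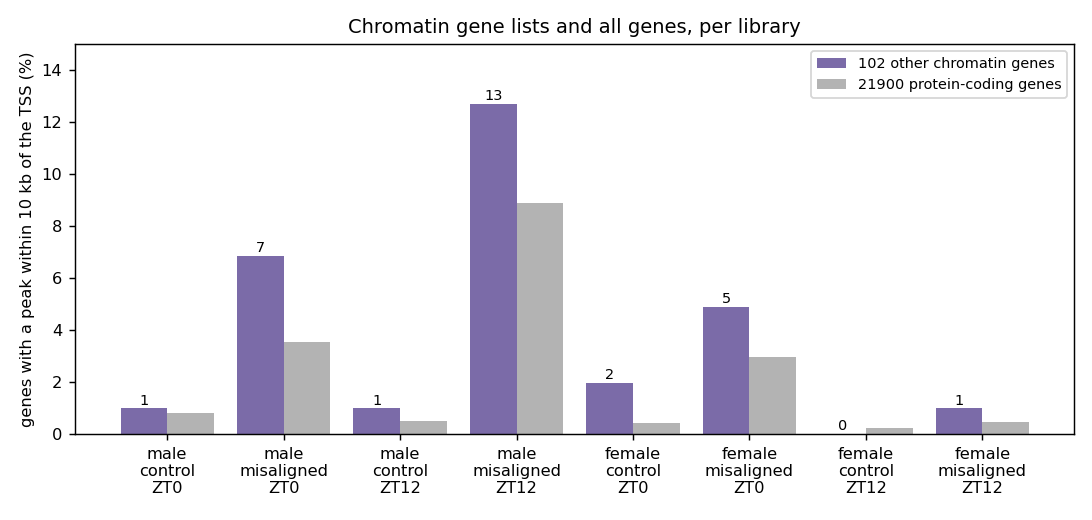
Share of the 102 other chromatin genes and of 21900 protein-coding genes with a BMAL1 peak within 10 kb of the TSS (percent, y axis), by library (x axis), with the number of chromatin genes above each bar. Both shares are highest in male misaligned ZT12 (12.7% and 8.9%), the longest list.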

How the data were processed

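Per the submitters' processing notes, the tools were BWA 0.7.17-r1188 and MACS2 2.2.7.1 and the build GRCm38. The q threshold, the control track and the sequencing depth are not given in the sources used here. Lists were called per library. Each deposited list gives, per peak, a score (-log10 q times a constant), a fold enrichment (a ratio), and p and q as -log10 values, all the authors' own. The deposited merged table gives a call per library, a count of merged peaks, the nearest gene and its distance. Its 56344 calls were checked against the lists, and 0 differed (overlap of at least 1 bp).

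Summit fragments and local background were solved from fold enrichment and -log10 p (relative tolerance 0.0001), with a solution for 99.7% to 100% of peaks per list, and the method was tested on simulated data. The lowest background was 4.25 to 6.16 fragments and the weakest called summit had 14 to 22, which sets the precision. Gene positions and promoters come from RefSeq (GRCm38.p6), where all 105 list genes matched. Groups were taken from the labels. With 1 library a group no test was run.

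The members and lists were chosen with earlier results of these data known. Genes named were the members, list genes with an interval called in at least 3 libraries or otherwise the 3 strongest of their list, neighbours within 100 kb, the 5 intervals most alike in rank, and Per1. A few list genes within this rule are not reported here. Alternatives were -log10 q of at least 3, lists of equal length, summits within 250 bp, other distance rules, rank by fold enrichment, and chromosomes 1 to 19, X and Y. Analyses used Python 3.11.15, pandas 2.3.3 and scipy 1.17.1.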

Additional observations from a re-analysis of the deposited data

How the results depend on the processing

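The 18 gene-by-library calls (7 for Kdm6b, 6 for Hmgn2 and 5 for Phf1) were the same number at -log10 q of at least 3, with summits within 250 bp and by RefSeq position. The q and summit rules could not change it, as the lowest -log10 q was 7.59 and the widest summit span 41 bp. The RefSeq rule could only add intervals. With every list shortened to 141 peaks the number was 17, and Kdm6b lost 1 library. Within 10 kb of the annotated TSS the total was 11 and Kdm6b had 0, by construction, since its distance is larger. The 7 calls in a misaligned library alone stayed 7 at the stricter q, which every peak of the 3 genes passes. With lists of equal length the total was also 7, but not of the same calls. Males then had 1 at ZT0, where they had 0, and 1 at ZT12, where they had 2. The genes were chosen on such calls, so nothing is read from these totals. Chromatin list genes with a peak, the members included, numbered 18, with 16 at the stricter q and 13 within 1 kb. They were 5 with lists of equal length, which hold fewer peaks, and 28 at any distance.

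Chosen after seeing the data, RefSeq position within 10 kb gave 56 list genes, a wider rule, and leaving out male misaligned ZT12 gave 15 gene-by-library calls, 5 calls in a misaligned library alone and 12 list genes. The ratio of Kdm6b in females at ZT0 turned from 0.822 to 2.42, and that of Phf1 in males at ZT0 from 0.692 to 1.6, when scaled to the lowest background. The cause was not tested. The other 4 ratios kept their direction. Ranked by fold enrichment, 8 of 19 ranks moved beyond the exact binomial interval of the rank, and over chromosomes 1 to 19, X and Y none did. No paired analysis across replicates was run, because each combination of sex, treatment and time has 1 library. The control and misaligned libraries matched for sex and time selected the genes and are given as values without a test. Depth is unknown, and counts of 36 to 186 fragments limit each value.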
